A study of Mus musculus with 9 samples.

Results

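The receptors through which serotonin, adrenaline, noradrenaline, dopamine, acetylcholine and histamine act were followed across the 9 brain libraries. Genes were taken by symbol alone, as all rows of the deposited table named Htr1 to Htr7, Adra, Adrb, Drd3 to Drd5, Chrm1 to Chrm5, Chrna, Chrnb, Chrnd, Chrne, Chrng or Hrh1 to Hrh4. This gave 51 of the 22192 genes listed: 14 serotonin, 9 adrenergic, 3 dopamine, 5 muscarinic, 16 nicotinic and 4 histamine receptor genes. The striatal dopamine receptors Drd1 and Drd2 are not members and are given once for comparison. The RNA was of brain, from male-labelled mice of the outbred KM stock, in 3 groups of 3 libraries. Young mice were 5 months old and had saline by mouth, aged mice were 18 months old and had saline by mouth, and treated mice were 18 months old and had 200 mg/kg of GRP-E1F2, a polysaccharide of ginseng root, by gavage. All were dosed every 2 days for 4 weeks, and no engineered allele is named in the labels. The labels call the libraries of a group parallel samples and name no separate animals. The spread that the p-values rest on is that between libraries, and it may be technical.

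Monoamines and histamine are made by small groups of neurons in the brainstem and hypothalamus whose axons reach most of the brain, and acetylcholine is made by neurons of the basal forebrain, brainstem, habenula and striatum. Most of their receptors are G protein-coupled receptors: those coupled to Gs raise cAMP, those coupled to Gi lower it, and those coupled to Gq release calcium through phospholipase C. The nicotinic receptors and the Htr3 receptor are ion channels built of several subunits. A channel that joins subunits of different genes needs the RNA of each of them.

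Values are TPM, a share of all transcripts that is scaled per length and so allow levels of different genes to be compared. TPM keeps no depth, so no counting error can be given, and a value of 0 means that a gene is listed at 0. Library sums lay between 999667 and 999929 TPM, with 16715 to 16962 genes above 0. Young library 3, aged library 2 and treated library 3 each lay between the other libraries of their group at 18 of 18, 12 of 13 and 15 of 15 tested receptor genes that differed at least 1.3-fold between that pair. Over all tested genes the share was 89.2%, 91.5% and 91.8%, so the counts over the receptor genes and over all genes are also given from 2 libraries per group. The labels do not say whether the library in between is independent of the other pair. If it is not, the SDs and standard errors over 3 libraries come out too small. None of 4 Y-linked genes (Uty, Kdm5d, Eif2s3y, Ddx3y) exceeded 0.174 TPM, against the male label. The extraction protocol names retina, but 10 photoreceptor genes summed to between 2.65 and 7.58 TPM in every library. Summed markers of cerebellar granule cells (8 genes) ran from 1389 to 1962 TPM in young, from 955 to 1004 TPM in aged and from 45.4 to 48.7 TPM in treated libraries, and all 8 fell in both comparisons. In bulk tissue, fewer cells of a type, less RNA per cell and a different share of brain regions in the sample cannot be told apart. Since TPM is a share of all transcripts, less cerebellar RNA can also raise the TPM of genes from other regions. The part of this in the receptor changes of either comparison was not tested.

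Of the 51 receptor genes 31 reached an average of 1 TPM across libraries and were tested, and 20 lay under it. Hrh4, Chrnd and Chrng were listed at 0 in every library. The highest were Hrh3 and Chrm1, with means of 57.6 and 54.8 TPM over all libraries, followed by Chrm4 at 19.0, Chrnb2 at 15.5, Adra2c at 14.6, Adra1d at 14.2, Chrna4 at 12.5, Adrb1 at 12.4, Htr2c at 11.1 and Chrm3 at 10.2 TPM. Hrh3 and Chrm1 together stood first and second in each group, and Chrm1 was above Hrh3 only among the treated means. The summed level of all 51 genes was 210 ± 29.5 TPM in young, 287 ± 7.85 TPM in aged and 396 ± 37.8 TPM in treated libraries (mean ± SD, n = 3). Of this sum Hrh3 made up 17.2%, 19.55% and 20.3% and Chrm1 12.2%, 18.7% and 21.5% in young, aged and treated groups. The sums, also those of families and coupling classes, thus follow their highest genes and do not describe every member. The muscarinic genes summed to 42.9 ± 13.6, 84.8 ± 8.79 and 132 ± 10.5 TPM. Histamine receptor genes summed to 43.7 ± 7.87, 63.8 ± 1.96 and 90.02 ± 17.5 TPM. Nicotinic genes summed to between 37.7 and 38.4 TPM in young, 31.8 and 37.6 TPM in aged and 36.7 and 39.7 TPM in treated libraries, so the aged group lay below the young and overlapped the treated.

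**Figure D1:**
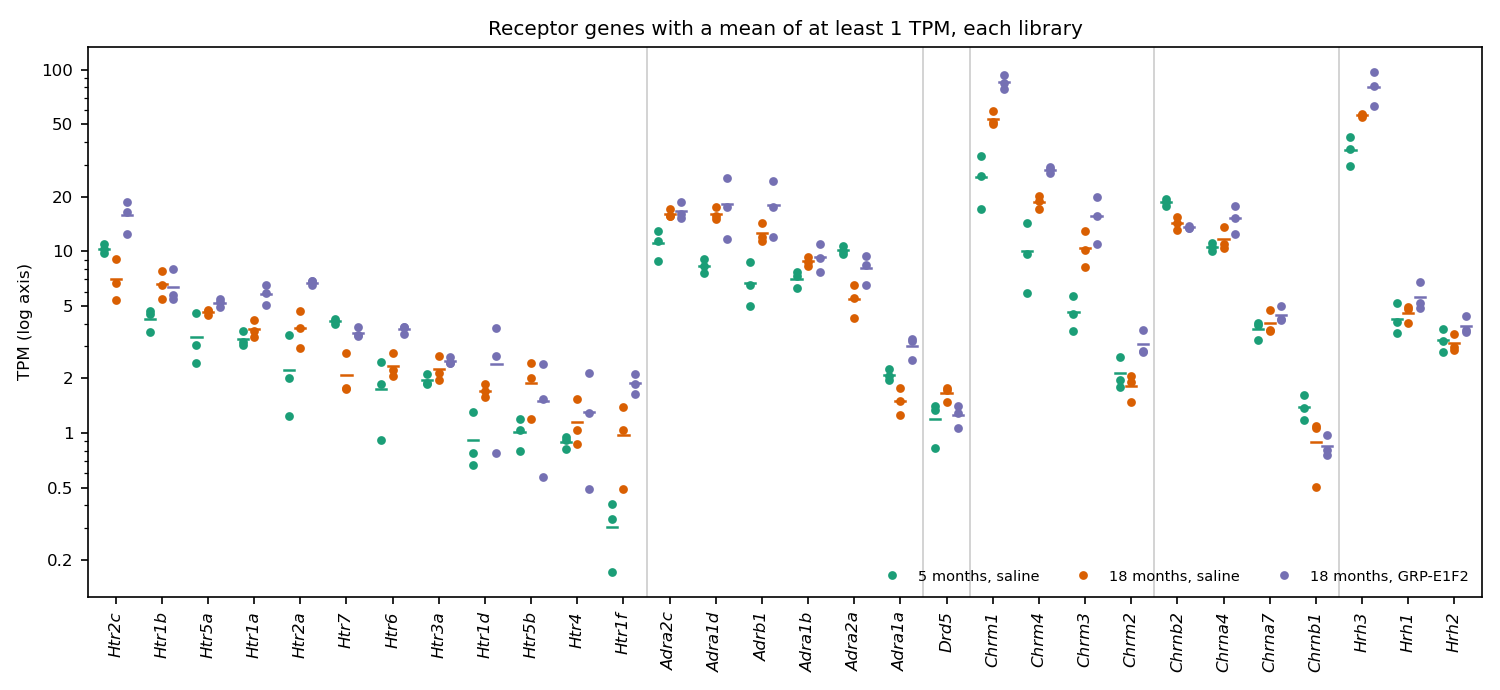
TPM of 30 of the 31 tested receptor genes on a log axis, with 1 dot per library and a short line at each group's mean, ordered by family and level. Hrh3 and Chrm1 have the highest group means in all 3 groups, though Chrm1 in young library 2 (17.2 TPM) lies below Chrnb2 there (19.3 TPM). The treated libraries of Chrm1 (78.3 to 92.9 TPM) lie above the aged (50.4 to 59.1 TPM), which lie above the young (17.2 to 33.4 TPM).

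**Figure D2:**
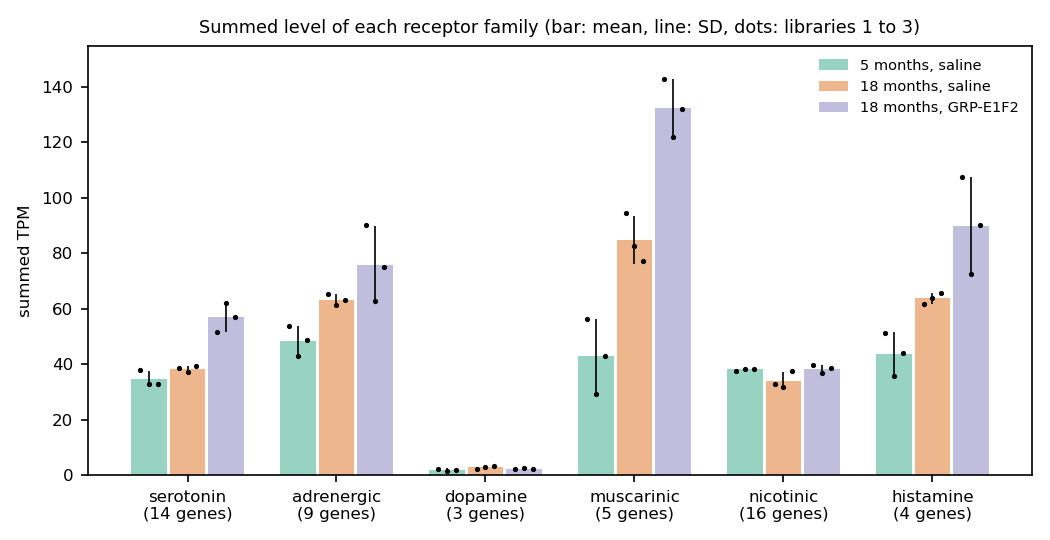
Summed TPM of each receptor family, with bars at the group mean, lines for the SD and dots for libraries 1 to 3. The muscarinic sum is separated between all 3 groups, while the nicotinic sum lies between 31.8 and 39.7 TPM throughout.

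The first comparison set receptor RNA of aged saline brains against that of young ones. Both comparisons were tested with limma on log2(TPM + 1) in 1 fit over all genes, with a call where the adjusted p was under 0.05. Of the 31 tested receptor genes 9 rose, 3 fell and 19 did not pass, a share of 38.7% called. Without Htr1f, which reached the filter only through its high treated values, 8 of 30 rose and 36.7% were called. Over all 13301 genes tested 16.7% were called, 5.48% as rises and 11.2% as falls. The median log2 fold change was 0.28 over the receptor genes and -0.05 over all genes. The rises were Chrm1, Chrm3, Chrm4, Adra1d, Adra2c, Adrb1, Hrh3, Htr1b and Htr1f, and the falls were Htr7, Adra2a and Chrnb2. With 2 libraries per group limma called none of the 31, with 10 at an unadjusted p under 0.05, against 0.0226% of all genes called. Leaving out 1 library gave 2 called receptor genes without young library 3 or aged library 2, 4 without young library 2 or aged library 1, and 5 without treated library 3, which enters only the estimate of the spread. The calls of Chrm3 and Adra1d were lost without young library 2 or 3 or aged library 1 or 2, those of Adra2c, Adrb1 and Hrh3 also without aged library 3, and that of Chrm4 without young library 3 or aged library 1 or 2. The call of Htr1b was lost without any 1 young library or aged library 1 or 2. All of these but Chrm3 were also lost without treated library 3.

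**Figure D3:**
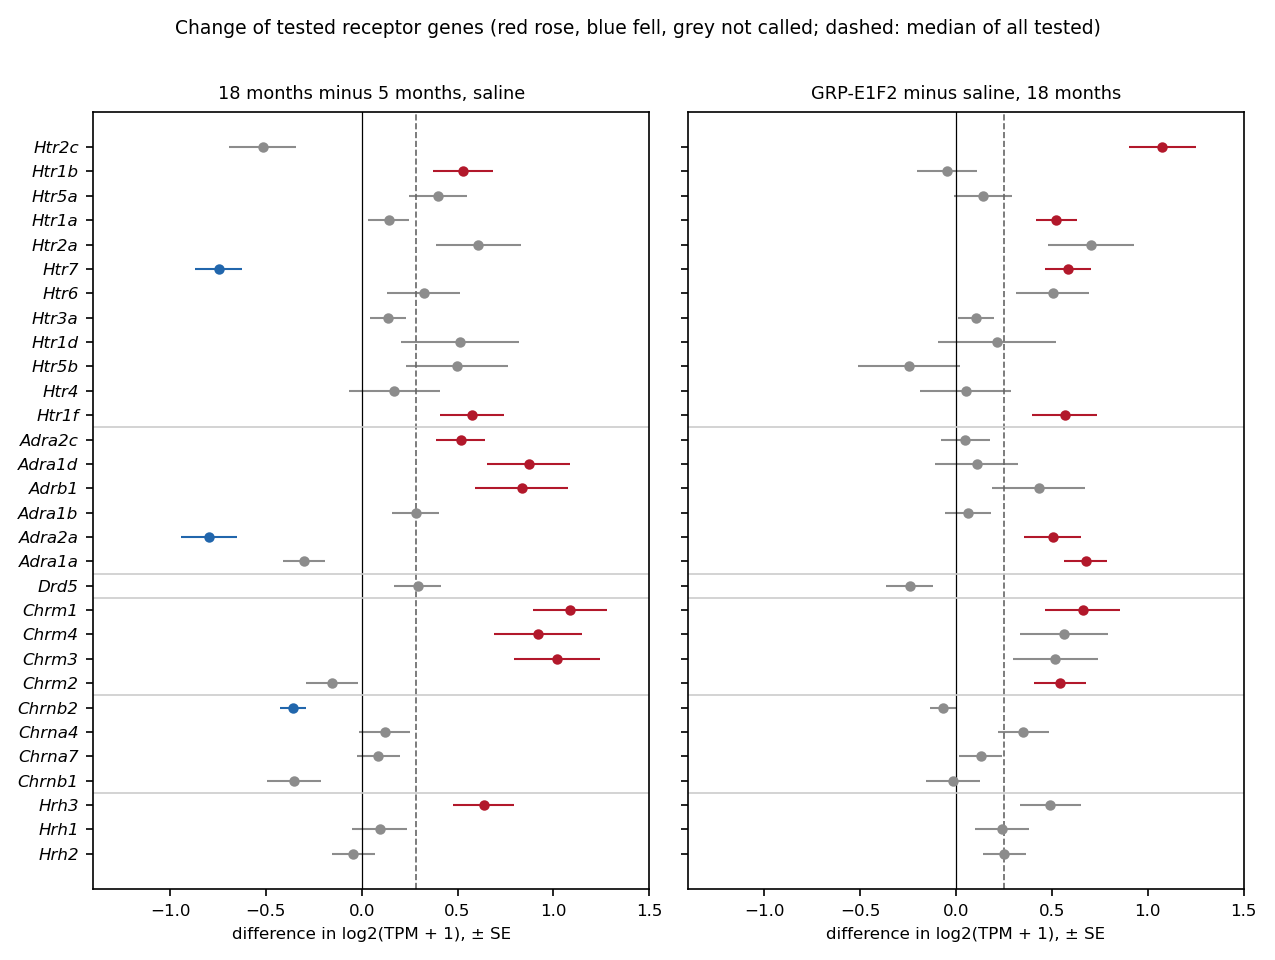
Difference in log2(TPM + 1) of 30 of the 31 tested receptor genes, each with its standard error, for age (left) and for GRP-E1F2 (right), where red marks rises, blue marks falls, grey marks genes not called and the dashed line is the median of all 31. The left holds 9 rises and 3 falls and the right 8 rises and no fall, with Htr1f among the rises of both.

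The second comparison asked how aged brains given GRP-E1F2 differed from aged brains given saline. It shares the aged saline libraries with the first, so the sizes in the 2 comparisons are not independent of each other and are only set side by side. Of the 31 tested genes 8 rose, none fell and 23 did not pass, a share of 25.8% called against 20.8% of all genes. Without Htr1f 7 of 30 rose, a share of 23.3%. Rises made up 7.47% and falls 13.4% of all genes. The median log2 fold change was 0.25 over the receptor genes and -0.02 over all genes. The rises were Htr2c, Adra1a, Htr1a, Htr7, Chrm2, Adra2a, Chrm1 and Htr1f. With 2 libraries per group limma called none, with 5 at an unadjusted p under 0.05, against 1.87% of all genes. Without aged library 2 there were 3 called receptor genes, without treated library 3 there were 4, and without aged library 3 or young library 3 there were 5. The call of Chrm2 was lost without aged library 2 or 3 or treated library 2 or 3.

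Among called receptor genes, the RefSeq table (GRCm38.p6, also called mm10) gives exactly 1 start for 13 of 16. For 4 of these, the 250 bases before the start hold no exon of GENCODE M21 and no part of the RefSeq gene. All 4 are shown, and the direction of change played no part in the choice. Of these genes 3 (Chrm4, Adrb1 and Htr1b) rose with age and Chrnb2 fell. The windows are chr2:91921939-91922188 on the plus strand for Chrm4, chr19:56721867-56722116 on the plus strand for Adrb1, chr9:81633833-81634082 on the minus strand for Htr1b and chr3:89764633-89764882 on the minus strand for Chrnb2. Each is written 5′ to 3′ toward the gene, with the motifs found in capitals.
Chrm4: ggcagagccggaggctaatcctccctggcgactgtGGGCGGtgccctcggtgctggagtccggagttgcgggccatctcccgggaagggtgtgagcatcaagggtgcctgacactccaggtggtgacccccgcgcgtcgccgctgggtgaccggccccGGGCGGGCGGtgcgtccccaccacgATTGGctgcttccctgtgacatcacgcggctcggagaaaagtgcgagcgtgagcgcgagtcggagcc
Adrb1: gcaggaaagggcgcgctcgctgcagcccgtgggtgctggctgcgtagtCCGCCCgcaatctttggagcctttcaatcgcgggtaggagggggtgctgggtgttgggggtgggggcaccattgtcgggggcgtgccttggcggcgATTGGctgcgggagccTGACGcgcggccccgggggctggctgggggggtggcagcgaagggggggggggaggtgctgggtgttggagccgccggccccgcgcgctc
Htr1b: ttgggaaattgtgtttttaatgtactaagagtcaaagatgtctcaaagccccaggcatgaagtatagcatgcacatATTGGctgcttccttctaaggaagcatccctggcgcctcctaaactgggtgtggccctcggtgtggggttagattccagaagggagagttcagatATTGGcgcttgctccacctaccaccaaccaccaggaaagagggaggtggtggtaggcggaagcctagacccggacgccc
Chrnb2: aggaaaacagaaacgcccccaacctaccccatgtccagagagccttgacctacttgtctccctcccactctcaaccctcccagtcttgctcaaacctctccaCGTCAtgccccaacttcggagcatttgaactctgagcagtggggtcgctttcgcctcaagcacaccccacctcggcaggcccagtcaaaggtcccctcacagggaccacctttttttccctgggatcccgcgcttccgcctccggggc
The motifs searched on both strands were the GC box with the letters GGGCGG, the CCAAT box, the TATA box with the letters TATAAA, the E-box with the letters CACGTG and a partial cAMP response element with the letters TGACG. A GC box stood in the windows of Chrm4 (3 copies, of which 2 overlap) and Adrb1 (1 copy), and a CCAAT box in those of Chrm4 (1), Adrb1 (1) and Htr1b (2). The partial cAMP response element stood in those of Adrb1 (1) and Chrnb2 (1), and no window held a TATA box or an E-box. Of all 32851 windows of this length in the table, 32.7% hold a GC box, 33.8% a CCAAT box, 17.8% the partial cAMP response element, 12.4% a TATA box and 6.02% an E-box. The G and C content was 70.0% for Chrm4, 74.0% for Adrb1, 52.4% for Htr1b and 59.6% for Chrnb2, against a median of 52.4% over all windows. In all, 38 of the 51 genes have at least 1 window in the table.

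Muscarinic receptors are the G protein-coupled receptors of acetylcholine. Chrm1 (chromosome 19, 8664005 to 8683606, mm10), the main Gq-coupled form of cortex and hippocampus, was 33.4, 17.2 and 25.9 TPM in young libraries 1 to 3, 59.1, 51.2 and 50.4 TPM in aged and 92.9, 78.3 and 84.4 TPM in treated libraries. All 3 groups were separated. Chrm1 rose with age (log2 fold change 1.09, SE 0.194, adjusted p = 0.0106) and again with GRP-E1F2 (0.66, SE 0.194, adjusted p = 0.0413). The age call held without any single library, while the GRP-E1F2 call was lost without young library 3 or without any 1 of the aged or treated libraries. Chrm3, a second Gq-coupled form, was 5.66, 3.67 and 4.54 TPM in young, 12.9, 10.2 and 8.18 TPM in aged and 20.01, 11.02 and 15.7 TPM in treated libraries. It rose with age (1.02, SE 0.223, adjusted p = 0.0199), and with GRP-E1F2 its groups overlapped (0.52, adjusted p = 0.132), though it passed under 2 alternative settings.

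Chrm4 (chromosome 2, 91922189 to 91929835, mm10), the Gi-coupled form of striatal neurons, was 14.3, 5.90 and 9.73 TPM in young, 20.2, 19.0 and 17.1 TPM in aged and 27.1, 28.4 and 29.0 TPM in treated libraries. The 3 groups did not overlap, and young library 2 was the lowest of all. Chrm4 rose with age (log2 fold change 0.92, SE 0.231, adjusted p = 0.0306), and the treated difference did not pass (0.56, adjusted p = 0.116), though it did under 3 alternative settings. Chrm2, a Gi-coupled autoreceptor on cholinergic terminals, was 2.64, 1.80 and 1.97 TPM in young, 2.06, 1.91 and 1.47 TPM in aged and 2.83, 3.67 and 2.78 TPM in treated libraries. It rose with GRP-E1F2 (0.54, SE 0.136, adjusted p = 0.0231) and did not pass with age (-0.15, adjusted p = 0.464). The ratio of Chrm1 to Chrm2 within a library was 9.54 to 13.2 in young, 26.8 to 34.2 in aged and 21.3 to 32.8 in treated libraries. Chrm5, a form found on dopamine neurons, was not tested, with 0.478 to 0.753 TPM in young, 0.205 to 0.283 TPM in aged and 0.193 to 0.669 TPM in treated libraries.

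Markers of the neocortex and striatum, where these receptors are abundant, are given beside them. The 12 neocortical markers summed to between 654 and 778 TPM in young, 883 and 1031 TPM in aged and 779 and 1378 TPM in treated libraries, with 4 of 12 rising with age and 1 with GRP-E1F2. The 12 striatal markers ran from 440 TPM in young library 2 to 1412 TPM in young library 1, from 1451 to 1984 TPM in aged and from 1105 TPM in treated library 1 to 3185 TPM in treated library 2, and none passed in either comparison. None of these markers was listed at 0 throughout a group. Chrm4 had the order of the striatal sum in young (1412, 440 and 936 TPM) and in aged libraries (1984, 1690 and 1451 TPM). In treated libraries Chrm4 was 27.1, 28.4 and 29.0 TPM, where the striatal sum was 1105, 3185 and 2150 TPM. Chrm3, Adrb1, Adra1d and Hrh3 each had the order of the neocortical sum in young and treated libraries. In aged libraries all but Hrh3 had it, and Hrh3 had the reverse. With 1 library of each group between the other pair at most genes that differed, a shared or reversed order says little. The part of these regional shares in the receptor changes was not tested.

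**Figure D4:**
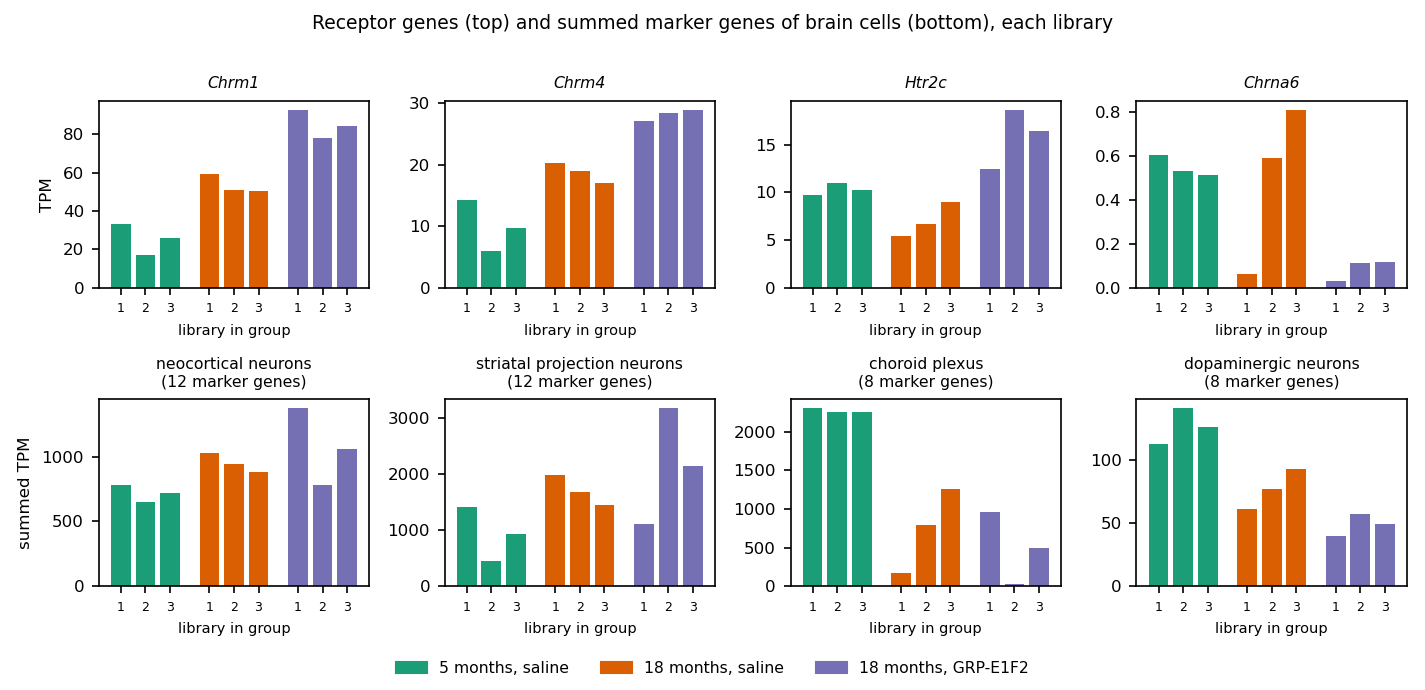
TPM of Chrm1, Chrm4, Htr2c and Chrna6 in each library (top) and summed TPM of marker genes for neocortical, striatal, choroid plexus and dopaminergic cells in the same libraries (bottom). Treated library 2 has the highest striatal sum (3185 TPM) and the lowest choroid plexus sum (21.7 TPM), and Chrna6 is 0.0608 TPM in aged library 1 against 0.592 and 0.811 TPM in the other aged libraries.

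Adrenergic receptors answer to noradrenaline and adrenaline. The Gi-coupled alpha-2 receptors, which act on noradrenergic terminals and on the neurons they reach, moved in opposite directions with age. Adra2a (chromosome 19, 54045259 to 54048982, mm10) was 10.6, 9.64 and 10.1 TPM in young, 4.30, 5.57 and 6.51 TPM in aged and 9.46, 6.54 and 8.43 TPM in treated libraries. It fell with age (log2 fold change -0.80, SE 0.147, adjusted p = 0.0118) and rose with GRP-E1F2 (0.50, SE 0.147, adjusted p = 0.0406), where the lowest treated value, 6.54 TPM, lay just above the highest aged value, 6.51 TPM. The rise with GRP-E1F2 was lost without any 1 of the 3 young libraries, aged library 1 or 2, or treated library 1 or 3, and the age call without young library 3 or aged library 2. Adra2c was 12.96, 8.85 and 11.4 TPM in young, 15.7, 15.6 and 17.0 TPM in aged and 15.2, 18.8 and 16.1 TPM in treated libraries. It rose with age (0.52, SE 0.126, adjusted p = 0.0280), and aged and treated groups overlapped (0.05, adjusted p = 0.820). The ratio of Adra2a to Adra2c within a library was thus 0.821 to 1.09 in young, 0.275 to 0.383 in aged and 0.348 to 0.621 in treated libraries. Adra2b, the third alpha-2 gene, stayed between 0.342 and 0.861 TPM.

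Of the Gq-coupled alpha-1 receptors, Adra1d was 9.09, 7.57 and 8.35 TPM in young, 17.4, 15.7 and 15.1 TPM in aged and 25.2, 11.7 and 17.6 TPM in treated libraries. It rose with age (log2 fold change 0.87, SE 0.216, adjusted p = 0.0290), while the treated libraries spanned the aged range (0.11, adjusted p = 0.762). Adra1a showed another order, at 1.95, 2.24 and 2.06 TPM in young, 1.77, 1.26 and 1.50 TPM in aged and 2.51, 3.28 and 3.23 TPM in treated libraries, and rose with GRP-E1F2 (0.67, SE 0.111, adjusted p = 0.00345). That call held without any single library. Its age difference did not pass (-0.30, adjusted p = 0.0898). Adra1b was 7.67, 6.26 and 7.32 TPM in young, 9.33, 8.30 and 8.78 TPM in aged and 11.04, 7.72 and 9.13 TPM in treated libraries and passed in neither comparison.

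Adrb1 (chromosome 19, 56722117 to 56725150, mm10), the Gs-coupled beta receptor that predominates in forebrain neurons, was 8.71, 4.996 and 6.49 TPM in young, 14.3, 11.99 and 11.5 TPM in aged and 24.4, 11.96 and 17.5 TPM in treated libraries. It rose with age (log2 fold change 0.84, SE 0.242, adjusted p = 0.0458), and treated library 2 lay within the aged range (0.43, adjusted p = 0.240). Adrb3, best known from fat tissue, stayed between 0.279 and 1.09 TPM and was not tested.

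Serotonin receptors formed 14 genes, 12 of them tested, of which 2 rose and 1 fell with age, where 16.7% of all genes were called, and 4 rose with GRP-E1F2, where 20.8% were. Htr1f is among the rises of both, and without it 1 rose with age and 3 with GRP-E1F2. Htr7 (chromosome 19, 35958415 to 36058133, mm10), a Gs-coupled receptor of thalamus, hypothalamus and hippocampus, was 4.25, 3.96 and 4.13 TPM in young, 1.74, 1.76 and 2.74 TPM in aged and 3.42, 3.81 and 3.48 TPM in treated libraries. The aged group lay apart from both others. Htr7 fell with age (log2 fold change -0.75, SE 0.121, adjusted p = 0.00804) and rose with GRP-E1F2 (0.58, SE 0.121, adjusted p = 0.0104). The fall held without any single library, and the rise was lost without aged library 2. Thalamic markers (10 genes) summed to between 81.8 and 86.4 TPM in young, 57.5 and 124 TPM in aged and 43.4 and 55.9 TPM in treated libraries, with 1 falling with age and 4 with GRP-E1F2. Within the aged group Htr7 and the thalamic sum were both lowest in library 1 and highest in library 3, while the treated libraries had more Htr7 and a lower thalamic sum than all aged libraries. Aged library 2 lay between the other pair at most genes that differed, so a shared order within that group says little. Hypothalamic markers (10 genes) summed to between 20.9 and 206 TPM in young, 16.9 and 53.4 TPM in aged and 8.73 and 196 TPM in treated libraries, with 1 of 8 tested falling with GRP-E1F2 and none called with age. Their part in the Htr7 changes was not tested.

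Htr2c, a Gq-coupled receptor of neurons and of the choroid plexus epithelium, was 9.78, 10.96 and 10.3 TPM in young, 5.41, 6.71 and 9.05 TPM in aged and 12.5, 18.7 and 16.5 TPM in treated libraries. It had the largest rise with GRP-E1F2 among the tested receptor genes (log2 fold change 1.08, SE 0.175, adjusted p = 0.00328), a call that held without any single library. With age the difference did not pass (-0.52, adjusted p = 0.0720). Choroid plexus markers (8 genes) summed to between 2254 and 2311 TPM in young, with 4 falling with age and 1 with GRP-E1F2 among 7 tested, to 164, 795 and 1253 TPM in aged libraries 1 to 3 and to 965, 21.7 and 491 TPM in treated libraries 1 to 3, and none was listed at 0 throughout a group. Among the treated libraries the highest Htr2c level stood with the lowest choroid plexus sum, and among the aged libraries the order of both was the same. Since 1 library of each group lay between the other pair at most genes that differed, a shared or reversed order says little. The part of choroid plexus content in the Htr2c changes was not tested.

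The Gi-coupled Htr1 receptors include the autoreceptors of serotonin neurons. Htr1a, abundant in hippocampus and raphe, was 3.17, 3.67 and 3.04 TPM in young, 4.21, 3.63 and 3.38 TPM in aged and 6.51, 5.08 and 5.86 TPM in treated libraries. It rose with GRP-E1F2 by 0.52 on the log2 scale (SE 0.107, adjusted p = 0.00957), which held without any single library, and did not pass with age (0.14, adjusted p = 0.383). Hippocampal markers (9 genes) summed to between 109.5 and 144 TPM over all libraries, with groups that overlapped, and 1 of 6 tested fell with GRP-E1F2. Htr1b, a terminal autoreceptor, was 4.68, 4.50 and 3.602 TPM in young, 7.81, 6.55 and 5.50 TPM in aged and 5.47, 7.98 and 5.72 TPM in treated libraries, and rose with age (0.53, SE 0.156, adjusted p = 0.0480). Its difference with GRP-E1F2 did not pass (-0.05, adjusted p = 0.849).

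Htr1f was 0.405, 0.173 and 0.336 TPM in young, 1.39, 1.04 and 0.491 TPM in aged and 1.65, 2.12 and 1.86 TPM in treated libraries. Its mean over all libraries, 1.05 TPM, passed the filter only through the treated group, so it entered the test because it was high there, and its calls are given as a description with no support drawn from them. It was called in both comparisons, and under 3 of 13 alternative settings that could be fitted with age and under 6 of 14 with GRP-E1F2. Htr1d, Htr4 and Chrnb1 were also tested with a group mean under 1 TPM, and none of them was called. Htr1d reached 3.80 TPM in treated library 2 against 0.778 TPM in treated library 1, and Htr4 reached 2.14 TPM against 0.494 TPM there.

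The other serotonin receptors did not pass in either comparison. Htr2a, the Gq-coupled receptor of cortical pyramidal neurons, was 3.45, 1.25 and 2.00 TPM in young, 4.68, 3.77 and 2.94 TPM in aged and 6.52, 6.86 and 6.83 TPM in treated libraries. The treated group lay above the aged (log2 fold change 0.71, adjusted p = 0.0539), and the gene was called under 8 of the alternative settings. Htr6, Gs-coupled and abundant in striatum, was 0.917 to 2.45 TPM in young, 2.06 to 2.75 TPM in aged and 3.49 to 3.85 TPM in treated libraries (0.50 with GRP-E1F2, adjusted p = 0.0913), and was called under 5 of the alternative settings. Htr5a lay between 2.43 and 5.44 TPM, Htr5b between 0.574 and 2.42 TPM and the channel subunit Htr3a between 1.86 and 2.65 TPM. Htr2b and Htr3b were at most 0.0629 and 0.0964 TPM.

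Histamine receptors were led by Hrh3 (chromosome 2, 180099465 to 180104484, mm10), a Gi-coupled receptor on histaminergic and other terminals that limits transmitter release. It was 42.5, 29.3 and 36.6 TPM in young, 54.8, 56.2 and 57.3 TPM in aged and 97.03, 63.1 and 81.3 TPM in treated libraries, and no groups overlapped. Hrh3 rose with age (log2 fold change 0.64, SE 0.161, adjusted p = 0.0312), and the treated difference did not pass (0.49, SE 0.161, adjusted p = 0.0595), though it did under 5 of the 18 alternative settings. Hrh1, Gq-coupled, stayed between 3.55 and 6.79 TPM and Hrh2, Gs-coupled, between 2.78 and 4.43 TPM, and neither passed.

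Nicotinic receptors are acetylcholine-gated channels, and the main heteromer of the brain joins Chrna4 with Chrnb2. Chrnb2 (chromosome 3, 89753448 to 89764632, mm10) was 17.8, 19.3 and 18.6 TPM in young, 14.3, 13.1 and 15.4 TPM in aged and 13.4, 13.5 and 13.8 TPM in treated libraries. It fell with age (log2 fold change -0.36, SE 0.0694, adjusted p = 0.0137), a call lost without young library 2 or 3 or aged library 2, and did not pass with GRP-E1F2 (-0.07, adjusted p = 0.533). Adar on the other strand covers 16.3% of the exon bases of Chrnb2 in GENCODE M21. The groups of Adar overlapped with age, at 29.1 to 30.5 TPM in young and 27.8 to 29.2 TPM in aged libraries. With GRP-E1F2 Adar rose, to between 32.2 and 32.7 TPM in treated libraries (limma, adjusted p = 0.0315). Chrna4 was 11.1, 10.05 and 10.6 TPM in young, 10.4, 11.01 and 13.6 TPM in aged and 17.9, 12.4 and 15.3 TPM in treated libraries, and passed in neither comparison (0.12, adjusted p = 0.561, and 0.35, adjusted p = 0.0914). The ratio of Chrna4 to Chrnb2 within a library was 0.521 to 0.625 in young, 0.725 to 0.879 in aged and 0.920 to 1.33 in treated libraries, with no overlap of groups. Chrna7, the subunit of the homomeric brain receptor, stayed between 3.23 and 4.98 TPM.

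The remaining nicotinic subunits lay low. Chrna1, Chrnb1, Chrnd, Chrne and Chrng build the receptor of skeletal muscle. Of these Chrnd and Chrng were listed at 0, Chrna1 and Chrne reached at most 0.284 and 0.159 TPM, and Chrnb1 lay between 0.507 and 1.61 TPM. Chrna2 and Chrna5, which join other neuronal subunits, lay between 0.261 and 1.19 TPM and between 0.239 and 0.850 TPM, and Chrna9, the usual partner of Chrna10, was above 0 only in treated library 1. Summed skeletal muscle markers (9 genes) lay between 7.48 and 12.8 TPM. Chrna3 and Chrnb4, which form the receptor of the medial habenula and of autonomic ganglia, were 0.537 to 0.930 and 0.852 to 1.23 TPM in young, 0.240 to 0.525 and 0.212 to 0.502 TPM in aged and 0.299 to 1.06 and 0.163 to 0.900 TPM in treated libraries. Beside these, medial habenula markers (7 genes) summed to between 290 and 378 TPM in young, 167 and 258 TPM in aged and 104 and 239 TPM in treated libraries. Calb2 made up most of that sum in young libraries, at 245 to 337 TPM. Of 6 tested 1 rose (Tac2) and 1 fell with age, and 1 rose (Tac2) and 2 fell with GRP-E1F2.

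Chrna6 and Chrnb3 are subunits of the receptor on dopamine terminals. Chrna6 was 0.606, 0.530 and 0.515 TPM in young, 0.0608, 0.592 and 0.811 TPM in aged and 0.0303, 0.113 and 0.118 TPM in treated libraries. Slc6a3, the dopamine transporter and a marker of the same neurons, was 5.17, 6.02 and 5.92 TPM in young, 0.0776, 3.43 and 6.42 TPM in aged and 0.116, 0.432 and 0.202 TPM in treated libraries. Dopaminergic markers (8 genes) summed to between 112 and 141 TPM in young, 60.9 and 92.6 TPM in aged and 39.97 and 57.0 TPM in treated libraries, and 1 of 7 tested fell in each comparison. Chrna6 and Slc6a3 were thus low in aged library 1 and in all treated libraries, and these values show no more than that they were low in the same libraries. Th, also among the 8 dopaminergic markers, was not low in all treated libraries. It was 8.24, 10.8 and 9.55 TPM in young, 5.45, 8.74 and 11.7 TPM in aged and 4.76, 20.2 and 12.95 TPM in treated libraries. Chrnb3 was 0.1995 to 0.341 TPM in young, 0.312 to 0.773 TPM in aged and 0.159 to 0.229 TPM in treated libraries.

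**Figure D5:**
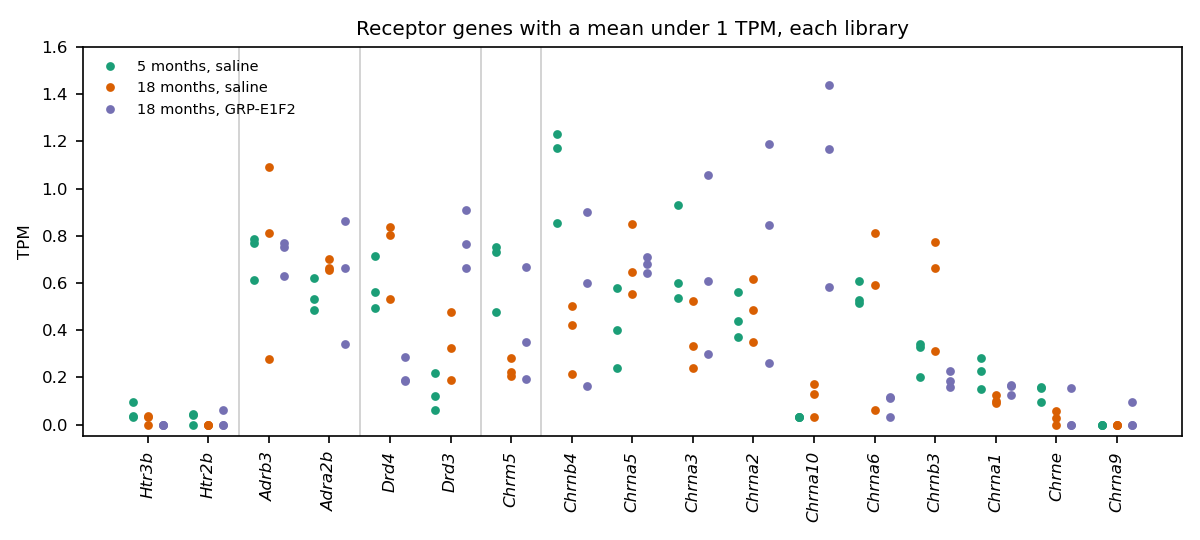
TPM of the receptor genes with a mean under 1 TPM that were above 0 in at least 1 library, with 1 dot per library. Chrna10 reaches 0.583 to 1.44 TPM in the treated libraries against at most 0.172 TPM in all others, and Drd4 is lowest in the treated libraries.

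Genes with a mean under 1 TPM were left out of the main test, and a test of all genes above 0, in which 16.6% of 18383 genes were called with GRP-E1F2, called 4 of them in that comparison and none with age. Chrna10, a subunit known from hair cells of the inner ear, was 0.0312, 0.0333 and 0.0324 TPM in young, 0.172, 0.128 and 0.0317 TPM in aged and 0.583, 1.44 and 1.17 TPM in treated libraries (log2 fold change 0.87, adjusted p = 0.00515). Art1 on the other strand covers 39.0% of its exon bases and was at most 0.0491 TPM in the treated libraries. Drd3, a Gi-coupled dopamine receptor of the ventral striatum, was 0.219, 0.0613 and 0.119 TPM in young, 0.190, 0.323 and 0.476 TPM in aged and 0.662, 0.911 and 0.766 TPM in treated libraries (0.42, adjusted p = 0.0170). Drd4, Gi-coupled and found in cortex and retina, was 0.715, 0.561 and 0.493 TPM in young, 0.531, 0.802 and 0.836 TPM in aged and 0.285, 0.184 and 0.191 TPM in treated libraries (-0.49, adjusted p = 0.00626). Chrnb3 was the fourth (-0.40, adjusted p = 0.0354). Gene models on the other strand that were not analysed here cover 48.6% of the exon bases of Drd5, 18.0% of Htr1b, 11.1% of Hrh3, 7.74% of Adra1d, 5.07% of Chrm1 and 2.35% of Chrm2. The level of each of the 4 genes called only without the filter is near or under 1 TPM, where the unknown depth limits what can be read.

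Drd5, the Gs-coupled dopamine receptor of cortex and hippocampus, was the 1 tested dopamine gene and lay between 0.827 and 1.78 TPM, passing in neither comparison. For comparison, Drd1 was 10.2, 0.802 and 5.63 TPM in young, 18.5, 14.0 and 10.6 TPM in aged and 12.7, 25.9 and 20.6 TPM in treated libraries, and Drd2 was 20.9, 4.13 and 13.5, then 28.0, 24.4 and 22.3, then 19.7, 49.4 and 37.2 TPM. Neither passed with age (adjusted p = 0.0897 and 0.138) or with GRP-E1F2 (0.652 and 0.597), and both were lowest in young library 2.

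Receptor levels also differed between libraries of 1 group. Of the 31 tested genes 10 were at least 1.5-fold higher in young library 1 than in young library 2, led by Htr2a, Htr6, Chrm4 and Htr1f, and none was lower by that much. Between aged libraries 1 and 3 there were 3 higher (Htr1f, Htr2a and Chrm3) and 4 lower (Htr5b, Htr2c, Htr7 and Adra2a). Treated library 1 was at least 1.5-fold above treated library 2 in Htr5b, Adra1d, Adrb1, Chrm3 and Hrh3, and below it in Htr1d and Htr4.

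By coupling, 3 of 8 tested Gq-coupled, 5 of 11 Gi-coupled and 1 of 7 Gs-coupled genes rose with age, and none of 5 channel subunits did, where rises made up 5.48% of all genes. With GRP-E1F2 3, 4, 1 and 0 rose, where rises made up 7.47% of all genes. Without Htr1f the Gi-coupled rises were 4 and 3 of 10. The falls with age were 1 Gi-coupled, 1 Gs-coupled and 1 channel gene. Summed levels of Gq-coupled genes were 65.1 ± 11.6, 106 ± 7.65 and 160 ± 17.3 TPM in young, aged and treated libraries, of Gi-coupled genes 83.8 ± 15.1, 120 ± 0.288 and 161 ± 14.1 TPM, and of Gs-coupled genes 20.4 ± 3.18, 25.1 ± 1.39 and 33.8 ± 5.04 TPM. Channel subunits summed to 40.2 ± 0.412, 36.4 ± 3.35 and 40.8 ± 1.41 TPM. No difference between these classes was tested.

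Of 23 genes that make, carry or break down the transmitters 16 were tested, and 2 fell and none rose in each comparison, where falls made up 11.2% of all genes with age and 13.4% with GRP-E1F2. With age these were Maoa, a monoamine oxidase, from 15.5 ± 1.05 to 12.6 ± 0.399 TPM (adjusted p = 0.0266), and Slc29a4, a monoamine transporter of low affinity, from 17.8 ± 2.60 to 10.8 ± 2.45 TPM (adjusted p = 0.0355). With GRP-E1F2 Slc29a4 fell to 5.21 ± 1.19 TPM (adjusted p = 0.00780) and Hdc, the enzyme that makes histamine, from 1.42 ± 0.366 to 0.274 ± 0.0568 TPM (adjusted p = 0.00117). Hrh3, Hrh1 and Hrh2 did not pass in that comparison. Tph2, the enzyme of serotonin synthesis in neurons, was 2.10 to 2.24 TPM in young, 0.185 to 4.23 TPM in aged and 0.0573 to 0.123 TPM in treated libraries and passed in neither comparison. Slc6a4, the serotonin transporter, lay under the filter, at 1.11 to 1.34 TPM in young, 0 to 2.87 TPM in aged and 0 to 0.0452 TPM in treated libraries. Markers of brainstem and spinal cord (10 genes) summed to between 47.5 and 65.8 TPM in young, 10.3 and 13.7 TPM in aged and 0.213 and 0.657 TPM in treated libraries, where 6 were at 0 throughout, and 6 of 7 tested fell with age and 2 with GRP-E1F2.

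Of 19 genes of receptor assembly, regulation and desensitisation 17 were tested. Of these 1 rose and 1 fell with age, and 1 rose and 2 fell with GRP-E1F2. Over all genes 16.7% were called with age and 20.8% with GRP-E1F2. With age Ric3, a chaperone of nicotinic receptors, fell from 32.1 ± 1.31 to 25.9 ± 2.63 TPM and Lypd6b, which binds nicotinic receptors, rose from 7.39 ± 0.931 to 10.4 ± 1.64 TPM. With GRP-E1F2 the related Lypd6 fell from 21.3 ± 0.721 to 13.7 ± 0.886 TPM, Lynx1, which damps nicotinic currents, fell from 690.1 ± 83.2 to 504 ± 52.4 TPM, and Grk6, a receptor kinase, rose from 24.3 ± 0.654 to 28.5 ± 0.262 TPM.

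Downstream of Gq-coupled receptors 14 genes were tested, with 2 rising and 4 falling with age and 1 rising and 4 falling with GRP-E1F2. Over all genes rises made up 5.48% and falls 11.2% with age, and 7.47% and 13.4% with GRP-E1F2. Itpr1, the calcium release channel, fell from 162 ± 18.3 to 117 ± 11.2 and then to 58.7 ± 5.66 TPM, and Plcb4, a phospholipase C, from 26.9 ± 2.34 to 18.7 ± 0.795 and then to 8.46 ± 1.56 TPM. Both genes are abundant in Purkinje cells, whose 7 markers, Itpr1 among them, summed to between 5028 and 6902 TPM in young, 3262 and 3505 TPM in aged and 476 and 565 TPM in treated libraries. Prkca, a protein kinase C, rose with GRP-E1F2 from 9.24 ± 0.351 to 19.9 ± 1.08 TPM. Of 12 tested genes of the Drd1 and Drd2 cascade only Prkar2b rose and only Prkaca fell with age. With GRP-E1F2 only Adcy1, an adenylyl cyclase, was called, and it fell from 36.5 ± 1.02 to 17.9 ± 7.37 TPM. The shares over all genes are those given above.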

How the data were processed

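The deposited table holds TPM values, as made by the authors for each gene, from brain RNA of 3 groups of 3 libraries. Per the labels' protocols, cDNA was made from fragmented mRNA with random primers (NEBNext Ultra II). Per the submitters' processing notes, the tools were GATK, HISAT2, Picard and SAMtools 0.1.18, and the build was mm10. For the quantifier, its annotation and its use of strand nothing is stated (not given in the sources used here), so overlapping genes cannot be separated.

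Values were taken as log2(TPM + 1). The 13301 genes averaging 1 TPM or more entered 1 fit over all 9 libraries (R 4.3.3, limma 3.58.1, eBayes with trend). Tests were two-sided, and p-values had Benjamini-Hochberg adjustment across every gene in the fit. A gene rose or fell where its adjusted p was under 0.05. On this log2 scale of the deposited TPM plus 1 the fold changes of low genes come out too small. Without counts no count test was run. The fit was tested on simulated data in which all libraries varied independently. That could not check the effect of a library that depends on the other pair of its group.

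The receptor genes and the 34 gene lists were chosen with earlier results of these data known. All 51 receptor genes entered the counts, sums and tests, and 1 tested gene is not reported here by name or drawn. Those called, and those with a mean of at least 5 TPM, are described individually. Up to 4 called genes per pathway list and comparison were named, by smallest p, while Drd1 and Drd2 were always given. Slc6a3, Slc6a4, Tph2, Th, Calb2, Tac2, Art1, Adar and the Y-linked genes were chosen after their values were seen. Values of marker lists are sums of TPM. Positions and windows are from RefSeq on GRCm38.p6, and exon overlaps from GENCODE M21. Alternatives were pseudocounts of 0.1 and 5 TPM, other filters and scalings, fits of 2 groups, the replicate number as a block and leaving out libraries. Tables and plots used numpy 2.4.6, matplotlib 3.10.9 and pandas 2.3.3 under Python 3.11.15.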

Additional observations from a re-analysis of the deposited data

How the results depend on the processing

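All called receptor genes kept their direction under the alternatives that could be fitted. For some of these the fold change equals that of the main fit by construction, so direction could not change. These are the other filters, the replicate block, the fits of 2 groups and omissions of libraries that the comparison does not use. Only the spread and the adjusted p can differ there. Of 210 values with age 142 kept the call and 68 lost it, and of 136 with GRP-E1F2 98 kept it and 38 lost it. Calls of receptor genes numbered 2 to 13 with age and 3 to 11 with GRP-E1F2 when each library was left out in turn, against 12 and 8. Those of all genes ran from 341 to 2644 and from 1348 to 3067, against 2217 and 2771. Single omissions cut the age calls of all genes to 614 (young library 2), 341 (young library 3), 1336 (aged library 1), 382 (aged library 2) and 1191 (treated library 3), and the GRP-E1F2 calls to 1348 (aged library 2) and 1387 (treated library 3). With 2 libraries per group there were 3 and 249 calls among all genes and 0 and 0 among the receptor genes, with fewer libraries in the fit. A mean of at least 5 TPM left 13 receptor genes, of which 3 were called with GRP-E1F2, since fewer genes were tested. All genes split into 729 rises and 1488 falls with age, but 925 and 1025 under median of ratios scaling and 966 and 1102 under quantile normalisation. With GRP-E1F2 the split was 994 and 1777, but 1302 and 1613 under median of ratios scaling and 1466 and 1470 under quantile normalisation. The replicate number as a block gave 12 and 10 called receptor genes and 2055 and 2589 of all genes. Deviations of same-numbered libraries correlated at -0.03 to 0.13 with age and at 0.02 to 0.05 with GRP-E1F2, so the numbers were not taken as pairs. Htr1f could not be fitted where its mean fell under the filter. Depth is unknown, which limits all values near or under 1 TPM.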
